A study of Homo sapiens with 27 samples.

Results

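The ZNF genes of chromosome 19 are the largest family of transcription factor genes on that chromosome, and their mRNA levels were compared here between 3 prostate cancer cell lines and after knockdown of CPSF1. Members were all rows of the deposited count table whose symbol starts with ZNF and a number and whose exons all lie on chromosome 19. This rule, which used no measured level, took 248 of 20268 gene symbols. The files also hold 259 ZNF genes on other chromosomes and 1222 other genes on chromosome 19, which served for comparison. LNCaP cells (hormone-sensitive) and LNCaP95 and 22Rv1 cells (hormone-insensitive) received by lentiviral transduction either a control hairpin that has no target (CTRL sh) or 1 of a pair of hairpins against CPSF1 mRNA (CPSF1 sh1, CPSF1 sh2). All 3 lines, controls included, were then selected with puromycin, and the 9 groups had 3 replicates each, which gave 27 libraries of poly(A)-selected RNA. Each line is a single established culture that traces to a metastasis or xenograft of prostate cancer, and LNCaP is the parental line of LNCaP95. A difference between lines is thus one between 3 cultures, of which LNCaP and LNCaP95 are related, and not between classes of tumour. LNCaP95 cells were kept in medium without phenol red, whereas LNCaP and 22Rv1 cells were not.

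Most ZNF genes of chromosome 19 encode proteins with an array of C2H2 zinc fingers that binds DNA, and many carry a KRAB domain at the other end of the protein. The KRAB domain recruits the scaffold protein TRIM28 (KAP1), which brings the histone methyltransferase SETDB1 and HP1 proteins and so silences chromatin, often at retrotransposons. The genes arose by repeated tandem duplication and stand in clusters of close relatives. CPSF1 is the largest subunit of the cleavage and polyadenylation specificity factor, the complex that recognises the AAUAAA signal (AATAAA in DNA) near the end of a transcript, where the RNA is cut and the poly(A) tail is added.

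Between 8515624 and 15904518 counts fell on genes in each library, and the 248 members together took 0.229% to 0.273% of them. CPSF1 mRNA fell by 0.65, 0.89 and 0.50 on the log2 scale in LNCaP, LNCaP95 and 22Rv1 cells, with adjusted p-values from edgeR's quasi-likelihood test of 1.7e-07, 1.3e-06 and 9.7e-05. The prostate epithelial markers KLK3 and HOXB13 were above 1 CPM (CPM, the count scaled to the TMM-adjusted library size, is used throughout) in each line, whereas no more than 3 of 5 fibroblast, 1 of 5 leukocyte and 1 of 3 endothelial markers were. The study's methods call the 3 replicates of a group biological, and no source used here says whether they were separate infections or cultures, so that p-values measure the spread between these libraries. CPSF1 sh1 replicate 3 of 22Rv1 cells differed most from its own replicates, with a chi-square per degree of freedom over all genes of 6.98 and 4.37 against 1.38 to 1.92 for the other pairs of replicates in that line. Counts for 22Rv1 cells are therefore given with and without it, and the named members called in the knockdown fit there kept their call without it. The CTRL sh libraries of LNCaP95 cells also differed among themselves, at 5.03 for replicates 1 and 2, 2.79 for 1 and 3 and 2.88 for 2 and 3.

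Along the chromosome, gaps of over 1 Mb divided the members into 16 groups. The group from ZNF101 to ZNF254 (GRCh37 chr19:19779605-24312654) held 36 members, and the group from ZNF628 to ZNF446 at the end of the long arm held 59. The promoters of the ZNF101 to ZNF254 group are shown because several of its members were near 0 in 1 cell line and expressed in the others. ZNF430 and ZNF681 were near 0 in LNCaP95 cells, and ZNF93 and ZNF91 were expressed in every line. Each sequence gives the 250 bases before the start of the gene in RefSeq (build GRCh38.p14), with capitals marking every CCAATCAG on the strand of the gene. In the order printed they lie at chr19:21020407-21020656 (plus strand), chr19:23758892-23759141 (minus strand), chr19:19900696-19900945 (plus strand) and chr19:23395472-23395721 (minus strand).
ZNF430: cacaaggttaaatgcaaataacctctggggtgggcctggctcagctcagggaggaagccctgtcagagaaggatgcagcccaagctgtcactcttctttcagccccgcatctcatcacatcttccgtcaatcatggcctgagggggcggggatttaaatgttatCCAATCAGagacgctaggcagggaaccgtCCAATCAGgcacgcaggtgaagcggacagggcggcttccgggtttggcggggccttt
ZNF681: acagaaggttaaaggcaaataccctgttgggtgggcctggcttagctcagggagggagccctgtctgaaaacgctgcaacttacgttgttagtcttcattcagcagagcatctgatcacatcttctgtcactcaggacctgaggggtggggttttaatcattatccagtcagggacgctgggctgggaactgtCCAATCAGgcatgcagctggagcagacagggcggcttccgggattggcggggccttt
ZNF93: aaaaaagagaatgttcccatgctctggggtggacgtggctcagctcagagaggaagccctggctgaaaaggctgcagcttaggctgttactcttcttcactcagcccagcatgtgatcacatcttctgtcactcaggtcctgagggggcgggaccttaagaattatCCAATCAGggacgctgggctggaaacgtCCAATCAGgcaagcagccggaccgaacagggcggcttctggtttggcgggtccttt
ZNF91: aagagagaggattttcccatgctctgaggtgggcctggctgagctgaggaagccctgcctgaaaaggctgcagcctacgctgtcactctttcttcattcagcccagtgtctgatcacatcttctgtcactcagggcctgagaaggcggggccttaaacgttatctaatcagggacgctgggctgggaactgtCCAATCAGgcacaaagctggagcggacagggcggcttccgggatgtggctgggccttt

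CCAATCAG was searched on both strands, and each match also holds the shorter CCAAT. It was present in 27 of the 27 promoters of the ZNF101 to ZNF254 group that the RefSeq table holds. It was present in 28 of 186 promoters of the other members (15.1%) and in 1088 of 27305 promoters of all genes (3.98%). The motif was not part of the planned design. If it was read from promoters of this group, its share there follows from the choice. The shorter CCAAT was in 44.1% of the other members and 33.0% of all promoters, and by construction in each promoter of the group. Within the group, the copy nearest to the start lay a median of 57 bases before it, between 23 and 84 bases. Promoters of the group were poor in CG, with a median of 8 CG dinucleotides in the 250 bases against 17 in the other members and 11 in all genes. Because every promoter of the group that was searched held the motif, its presence could not separate members near 0 in LNCaP95 cells from members expressed in every line.

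With no filter, the median level of the family was close to that of all genes in LNCaP and LNCaP95 cells and lower in 22Rv1 cells. In CTRL sh libraries the median member had a level of 7.28 CPM in LNCaP, 7.29 CPM in LNCaP95 and 6.30 CPM in 22Rv1 cells. Over all genes the median was 8.14, 7.17 and 9.63 CPM in the same order. Members that passed the filter were weakly expressed beside the other genes that did. The filter for testing required that no library of the line was at or below 2 CPM. Among the genes that passed it, the median CTRL sh level was 9.46, 10.2 and 8.95 CPM for members and 49.4, 48.9 and 46.8 CPM for all genes. Of the 248 members, 178 had a mean above 2 CPM with CTRL sh in all 3 lines and 20 were under 1 CPM in all 3. Per kb of exon, the highest CTRL sh levels in LNCaP cells were those of ZNF358 at 25.2, ZNF581 at 21.3 and ZNF524 at 18.7 CPM per kb. In LNCaP95 cells they were those of ZNF146 at 21.2, ZNF274 at 19.3 and ZNF317 at 13.2 CPM per kb, and in 22Rv1 cells those of ZNF428 at 26.6, ZNF581 at 15.5 and ZNF444 at 13.0 CPM per kb. ZNF581 alone stood among the 3 highest in more than 1 line. ZNF146 encodes a protein made almost only of zinc fingers, without a KRAB domain, and ZNF274 encodes a KRAB protein known to bind the 3′ ends of other zinc finger genes and to recruit SETDB1 there.

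The levels with CTRL sh were then compared between the lines, in a fit of the 9 CTRL sh libraries with genes above a mean of 2 CPM. Of the 206 members tested, 67 were higher and 62 lower in LNCaP95 than in LNCaP cells at an adjusted p-value below 0.05. Over all 12281 genes tested, 38.8% were higher and 39.7% lower in that comparison. Between 22Rv1 and LNCaP cells 51 members were higher and 85 lower in 22Rv1, where 42.2% and 41.6% of all genes were. Between 22Rv1 and LNCaP95 cells 56 members were higher and 103 lower in 22Rv1, where 44.1% and 41.8% of all genes were. The median difference of the members was 0.07, -0.16 and -0.28 on the log2 scale in these comparisons, and that of all genes between 0 and 0.03. The 3 comparisons share libraries with one another. The filter on the mean lets in genes that are high in 1 line alone, and with genes above 2 CPM in all 9 CTRL sh libraries the members called were 102, 104 and 121 in place of 129, 136 and 159.

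The ZNF101 to ZNF254 group had an order of its own. Of its 36 members, 24 were above 2 CPM with CTRL sh in LNCaP cells, 15 in LNCaP95 cells and 29 in 22Rv1 cells. Their summed level was 227 CPM in LNCaP, 109 CPM in LNCaP95 and 375 CPM in 22Rv1 cells. Over all 36, with no filter on level, the mean was lower in LNCaP95 than in LNCaP cells for 26 and higher for 7. It was higher in 22Rv1 than in LNCaP95 cells for 31 and lower for 3, and higher in 22Rv1 than in LNCaP cells for 29 and lower for 5. The ZNF175 to ZNF331 group ran the other way, since 33 of its 38 members had a lower mean in 22Rv1 than in LNCaP95 cells and 4 a higher one, and in the ZNF628 to ZNF446 group 45 of 59 had a lower and 14 a higher mean. Over all 248 members, 148 means were lower and 96 higher in that comparison. Called members are not counted for these groups, because a gene that is high in 1 line alone enters the fit through that line. A gene between these members that does not belong to the family, RPSAP58, was at 57.1 CPM in LNCaP, 22.6 CPM in LNCaP95 and 57.8 CPM in 22Rv1 cells, scaled to total counts alone. In bulk RNA, fewer cells that express a gene and less RNA per cell cannot be told apart.

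In all, 7 of these genes had a mean CTRL sh level above 2 CPM in LNCaP and 22Rv1 cells and under 1 CPM in LNCaP95 cells, namely ZNF506, ZNF85, ZNF430, ZNF714, ZNF730, ZNF681 and ZNF726. With the knockdown libraries included, ZNF730 ranged from 0.454 to 3.01 CPM over the 9 LNCaP95 libraries. ZNF506 had levels of 4.43, 5.67 and 6.12 CPM in the CTRL sh libraries of LNCaP cells and of 9.39, 9.87 and 9.64 CPM in those of 22Rv1 cells, and no count in any of the 9 LNCaP95 libraries. Against a floor of 3 counts over the LNCaP95 CTRL sh libraries, it was at least 63.0-fold higher in LNCaP and at least 112-fold higher in 22Rv1 cells. ZNF430 had levels of 9.73, 10.0 and 7.47 CPM in LNCaP and 14, 14.2 and 15.5 CPM in 22Rv1 cells, and a single count in the 9 LNCaP95 libraries. The same floor gave levels at least 105-fold higher in LNCaP and at least 168-fold higher in 22Rv1 cells. ZNF681 had levels of 4.53, 3.78 and 4.05 CPM in LNCaP cells and of 32.2, 33.6 and 36.9 CPM in 22Rv1 cells. With 1 count in LNCaP95 CTRL sh libraries, its ratio of 22Rv1 to LNCaP95 was 1183 with an exact 95% counting interval from 212 to 46772. None of the 3 groups overlapped for these genes. They were picked by these same levels, so the separation of LNCaP95 cells follows from the choice. The intervals and floors cover counting error only, and how many of all genes had the same pattern is not given here.

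ZNF714 was not at 0 in LNCaP95 cells. Its CTRL sh levels were 0.22, 0.545 and 0.593 CPM there, against 19.3, 22.0 and 19.5 CPM in LNCaP and 23.0, 23.8 and 20.9 CPM in 22Rv1 cells. The difference between LNCaP95 and LNCaP was -5.53 ± 0.20 (log2, SE) with an adjusted p-value of 1.0e-18, and LNCaP and 22Rv1 did not differ past the threshold (adjusted p = 0.19). ZNF85 differed by -5.42 ± 0.33 between LNCaP95 and LNCaP cells (adjusted p = 7.6e-14). Both genes were picked by these same levels and entered the fit through the lines where they were high. Their p-values are therefore no separate support. The 15 members of the group that were above 2 CPM in every line were interspersed with the 7 low in LNCaP95 cells along the chromosome and included ZNF91 and ZNF93. No member of the group was above 2 CPM in LNCaP95 cells and under 1 CPM in another line.

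**Figure D1:**
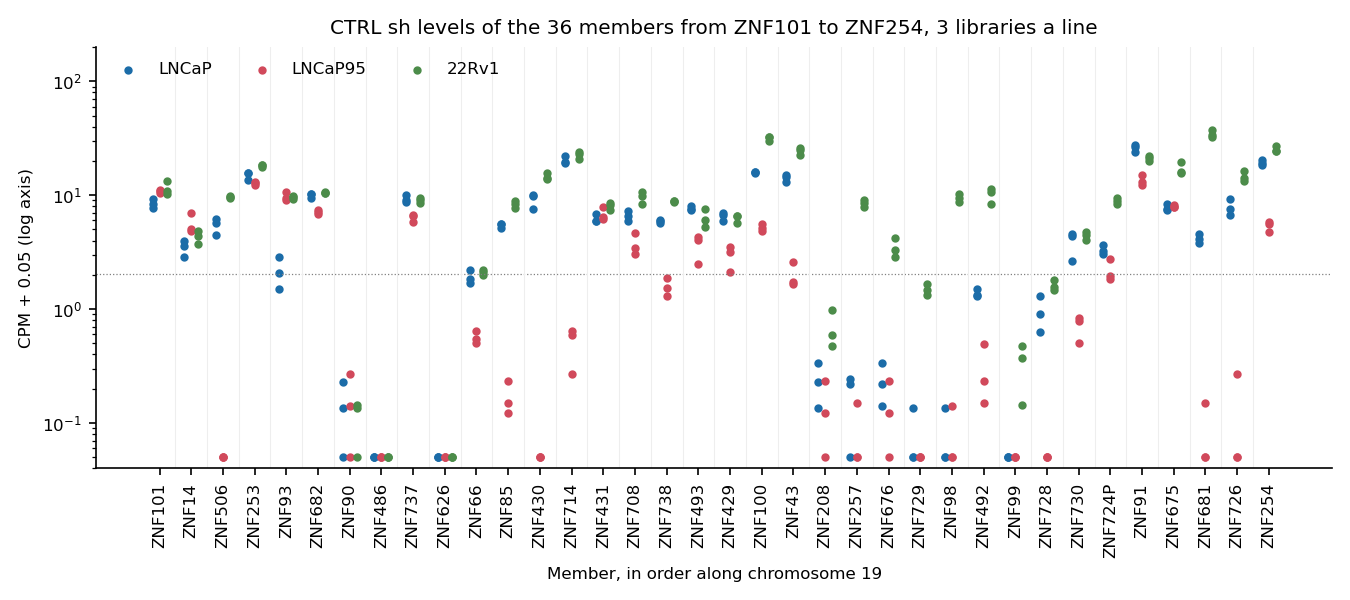
CTRL sh levels of the 36 members from ZNF101 to ZNF254 in order along chromosome 19, in CPM plus 0.05 on a log axis, with 1 point for each of 3 libraries of LNCaP, LNCaP95 and 22Rv1 cells and a dotted line at 2 CPM. The points of LNCaP95 cells lie at or near the bottom for ZNF506, ZNF430 and ZNF681, where those of the other lines lie above 2 CPM.

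ZNF91 and ZNF93 encode KRAB proteins known to repress SVA and L1 retrotransposons in primate cells. ZNF91 had CTRL sh levels of 27.3, 26.3 and 23.9 CPM in LNCaP, 12.2, 15.0 and 12.9 CPM in LNCaP95 and 22.0, 19.7 and 21.3 CPM in 22Rv1 cells. It was lower in LNCaP95 than in LNCaP cells by -0.96 ± 0.09 (log2, SE; adjusted p = 6.8e-10). ZNF93 went the other way, with levels of 2.02, 1.46 and 2.79 CPM in LNCaP, 9.31, 8.99 and 10.6 CPM in LNCaP95 and 9.22, 9.87 and 9.64 CPM in 22Rv1 cells. It was higher in LNCaP95 than in LNCaP cells by 2.19 ± 0.18 (adjusted p = 1.7e-11), and 22Rv1 and LNCaP95 cells differed by -0.02 ± 0.13. ZNF93 was 1 of the 7 members of the group with a higher mean in LNCaP95 than in LNCaP cells.

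Over the whole family, 22Rv1 cells alone expressed ZNF788, ZNF257, ZNF676, ZNF98 and ZNF114 at a mean CTRL sh level above 2 CPM, with means under 1 CPM in the other 2 lines. Of these, ZNF257, ZNF676 and ZNF98 belong to the ZNF101 to ZNF254 group. ZNF257 had levels of 8.46, 7.90 and 9.10 CPM in 22Rv1 cells and of 0 to 0.193 CPM in the CTRL sh libraries of the other lines. ZNF114 had levels of 7.02, 7.14 and 5.74 CPM in 22Rv1 and 0.289, 0.258 and 0.270 CPM in LNCaP cells, with no count in LNCaP95 CTRL sh libraries, so that it was at least 77.6-fold higher in 22Rv1 than in LNCaP95 cells. ZNF98 was at 10.2, 8.74 and 9.32 CPM in 22Rv1 cells. Of the 75-base windows of its exons, 35.4% also occur elsewhere on chromosome 19, in exons or outside them, so reads could be split between copies. In the opposite direction, ZNF846, ZNF404, ZNF671 and ZNF132 had a mean CTRL sh level under 1 CPM in 22Rv1 cells and above 2 CPM in the other 2 lines. ZNF671 had levels of 0.846, 0.752 and 1.19 CPM there against 7.23, 6.01 and 7.02 CPM in LNCaP and 10.3, 10.5 and 10.8 CPM in LNCaP95 cells. The difference between 22Rv1 and LNCaP95 was -3.52 ± 0.19 (log2, SE; adjusted p = 3.2e-15). The genes of both lists were picked by these same levels, so this p-value is no separate support.

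A second member with a pattern of its own was ZNF331, a gene known to be imprinted. It was at 34.7, 39.9 and 42.9 CPM in LNCaP95 cells, 13.6, 12.4 and 11.8 CPM in LNCaP and 11.8, 13.8 and 12.6 CPM in 22Rv1 cells. It was higher in LNCaP95 than in LNCaP cells by 1.62 ± 0.09 (log2, SE; adjusted p = 2.1e-14), and 22Rv1 and LNCaP did not differ past the threshold (-0.01 ± 0.11). ZNF473 encodes ZFP100, a zinc finger protein of the U7 snRNP that forms the 3′ ends of histone mRNAs. Its level was 69.1, 63.3 and 68.9 CPM in 22Rv1, 30.2, 34.6 and 36.4 CPM in LNCaP95 and 20.9, 23.9 and 25.4 CPM in LNCaP cells. All 3 lines were separate for this gene, with 22Rv1 above LNCaP95 by 0.98 ± 0.07 (adjusted p = 9.0e-13) and LNCaP95 above LNCaP by 0.51 ± 0.08 (adjusted p = 4.5e-06).

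After CPSF1 knockdown, the summed level of the 248 members stayed close to that of the controls. The 3 CTRL sh libraries of LNCaP cells averaged 2738 ± 58.6 CPM (SD, n = 3), against a mean of 2546 ± 49.95 CPM for CPSF1 sh1 and of 2565 ± 109 CPM for CPSF1 sh2. In the same order, LNCaP95 cells had sums of 2740 ± 68.2, 2675 ± 39.8 and 2599 ± 54.3 CPM, and 22Rv1 cells of 2411 ± 39.9, 2434 ± 78.7 and 2483 ± 46.7 CPM. In LNCaP cells all 6 knockdown libraries lay below the 3 controls, since the controls ranged from 2675 to 2790 CPM and the knockdown libraries from 2444 to 2655 CPM. In LNCaP95 cells the CPSF1 sh2 libraries, at 2567 to 2662 CPM, also lay below the controls, at 2694 to 2818 CPM, whereas those of CPSF1 sh1 overlapped them. In 22Rv1 cells both hairpins overlapped the controls. These separations depended on the TMM scaling and did not hold for the share of total counts. In LNCaP cells that share was 0.261% in CPSF1 sh2 replicate 3 and 0.260% in CTRL sh replicate 1. In LNCaP95 cells it was 0.254% to 0.270% with CTRL sh, 0.263% to 0.273% with CPSF1 sh1 and 0.254% to 0.264% with CPSF1 sh2. No test was made of the sum.

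**Figure D2:**
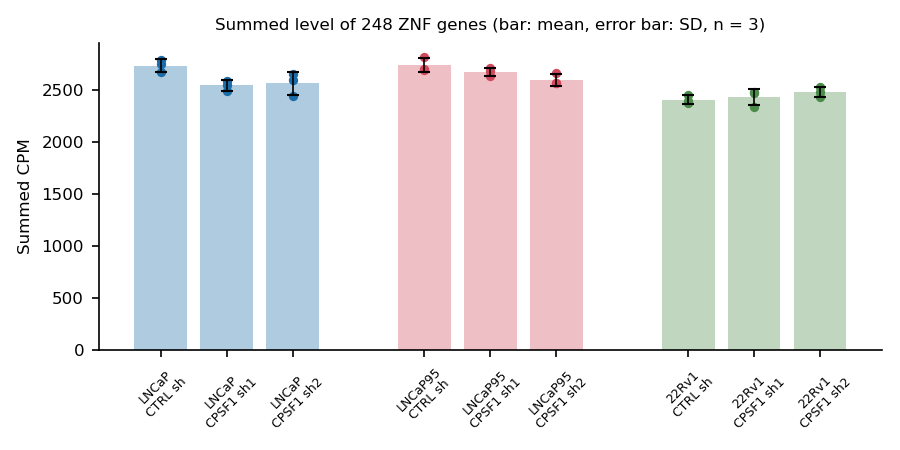
Summed level of the 248 members in CPM for each line and hairpin, with bars for the mean of 3 libraries, error bars for the SD and points for the libraries. The means lie between 2411 and 2740 CPM, and both knockdown bars of LNCaP cells are below the CTRL sh bar.

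Member by member, fewer ZNF genes passed the threshold than genes in general. In LNCaP cells, 14 of 185 members tested rose and 39 fell with CPSF1 sh (6 libraries against 3), where 31.1% of all 11096 genes rose and 31% fell. In LNCaP95 cells, 33 of 181 rose and 51 fell, where 33.2% of all genes rose and 33.7% fell. In 22Rv1 cells, 13 of 187 rose and 3 fell, where 12.7% of all genes rose and 14.3% fell. As shares of the members tested, LNCaP cells had 28.6% called, LNCaP95 cells 46.4% and 22Rv1 cells 8.56%. The median change of the members was -0.06, -0.03 and 0.04 on the log2 scale, with that of all genes at 0 within 0.01. In LNCaP95 cells these directions depended on the scaling, because library size alone in place of TMM gave 49 higher and 37 lower members with a median of 0.06, when the median of all genes was 0.09. Without CPSF1 sh1 replicate 3, 19 of 189 members rose and 6 fell in 22Rv1 cells, where 18.9% of all genes rose and 20.2% fell. Without CTRL sh replicate 3, 4 rose and 1 fell, and without CTRL sh replicate 1, 5 rose and 1 fell. In LNCaP cells 8 members rose without CTRL sh replicate 1.

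ZNF genes on other chromosomes were called more often than those on chromosome 19 in each line. Of those tested, 30 rose and 60 fell of 202 in LNCaP, 67 and 59 of 208 in LNCaP95 and 30 and 9 of 209 in 22Rv1 cells. Their medians were -0.07, 0.01 and 0.06 on the log2 scale. Without CPSF1 sh1 replicate 3 of 22Rv1 cells they had 55 rises and 12 falls of 210 there, and the other genes on chromosome 19 had 61 rises and 172 falls of 663. The other genes on chromosome 19 had 236 rises and 154 falls of 615 in LNCaP, 169 and 249 of 620 in LNCaP95 and 48 and 91 of 663 in 22Rv1 cells. Under TMM scaling their balance of rises and falls was thus opposite in each line to that of the off-chromosome ZNF genes. The latter were nearly even in LNCaP95 cells, at 67 and 59. The chromosome 19 members had more falls than rises in LNCaP and more rises than falls in 22Rv1 cells, as ZNF genes elsewhere had. Under TMM, LNCaP95 cells had more falls than rises among members, as among the other genes on chromosome 19. Library size alone gave more rises than falls among members there, so their direction depended on the scaling. For the other lists such counts are not given here, and the likeness is one under TMM only. No test was made of these differences between lists.

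Because the tested members are weakly expressed beside tested genes in general, they were set beside other genes of similar CTRL sh level in 5 bands. In LNCaP cells the median change of members and of other genes was 0.14 and 0.43 (log2) under 4 CPM, -0.06 and 0.03 from 4 to 8 CPM, and -0.08 and -0.08 from 8 to 16 CPM. Above that it was -0.10 and -0.03 from 16 to 32 CPM and -0.18 and 0.01 over 32 CPM. In LNCaP95 cells it was 0.13 and 0.54, 0.04 and 0.23, -0.11 and 0.15, -0.10 and 0.08, and -0.13 and -0.06 in the same 5 bands. In 22Rv1 cells it was 0.10 and 0.24, 0.06 and 0.01, 0.02 and -0.01, 0.02 and -0.01, and -0.10 and -0.01. The members' median was thus below that of other genes of like level in 4 of 5 bands in LNCaP, in 5 of 5 in LNCaP95 and in 2 of 5 in 22Rv1 cells. A smaller share of members than of other genes was called in 5 of 5 bands in each line. Without CPSF1 sh1 replicate 3, the 22Rv1 medians were 0.14 and 0.22, 0.10 and 0.01, 0.01 and -0.02, 0.03 and -0.01, and -0.07 and -0.00. From 8 to 16 CPM in LNCaP95 cells, for example, 15 of 69 members rose and 24 fell, and 423 of 1024 other genes rose and 212 fell. In the band under 4 CPM a gene passed the filter only if no library fell below 2 CPM, so that values there are selected.

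The hairpins were also compared on their own with the CTRL sh libraries they share. In LNCaP cells, CPSF1 sh1 gave 11 higher and 39 lower members (31.2% and 31.3% of all genes) and CPSF1 sh2 gave 17 and 39 (32.1% and 32.5%). In LNCaP95 cells, CPSF1 sh1 gave 35 higher and 39 lower members (33.1% and 33.3% of all genes) and CPSF1 sh2 gave 36 and 59 (36.5% and 36.9%). With library size alone these became 53 and 25 for CPSF1 sh1 and 49 and 53 for CPSF1 sh2. In 22Rv1 cells, CPSF1 sh1 gave 3 higher and 2 lower members (8.79% and 11.1% of all genes) and CPSF1 sh2 gave 17 and 8 (19.1% and 20.9%). The 5 members of CPSF1 sh1 became 2 without CTRL sh replicate 1 and 11 without CPSF1 sh1 replicate 3, and the 25 of CPSF1 sh2 became 11 without CPSF1 sh2 replicate 3, 13 without CTRL sh replicate 3 and 32 without CPSF1 sh1 replicate 3. DESeq2 called 2 and 12 there, and 33 in place of 50 for CPSF1 sh1 in LNCaP cells. Tested directly against each other, the hairpins differed for 3 members in LNCaP cells (14.8% of all genes), 24 in LNCaP95 cells (34.1%) and 4 in 22Rv1 cells (11.3%). The members' share was thus below the share of all genes in each line. The 3 in LNCaP cells were ZNF812, ZNF226 and ZNF671, each lower with CPSF1 sh2, by -0.58, -0.40 and -0.41. The 4 in 22Rv1 cells were ZNF490 and ZNF714, higher with CPSF1 sh2 by 0.59 and 0.36, and ZNF428 and ZNF524, lower by -0.27 and -0.42. ZNF671, ZNF490, ZNF714 and the latter 2 were named after their values were seen. Leaving out 1 library gave between 1 and 4 such members in LNCaP cells and between 0 and 9 in 22Rv1 cells, where it was 0 without CPSF1 sh2 replicate 1 or 3, 9 without CPSF1 sh1 replicate 1 and 1 without CPSF1 sh1 replicate 3. In LNCaP95 cells it gave 14 to 26, with 14 without CPSF1 sh1 replicate 2 or CPSF1 sh2 replicate 3. DESeq2 called 1, 15 and 1 in the 3 lines, and the fit with the replicate number as a block called 7 in LNCaP cells.

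Among the members that moved, ends with and without a canonical polyadenylation signal both occurred. A stretch of 30 bases from the last 50 of the annotated gene (GRCh37) is printed for ZNF493, ZNF548 and ZNF160, which had large changes in LNCaP95 cells, and for ZNF738, which rose in 22Rv1 cells, with capitals marking AATAAA or its variant ATTAAA. They lie at chr19:21610346-21610375 (plus strand), chr19:57912757-57912786 (plus strand), chr19:53569870-53569899 (minus strand) and chr19:21562075-21562104 (plus strand), in the 3′ untranslated part of the last exon or in its non-coding equivalent.
ZNF493: ttgtgcattcAATAAAgtgttgttatgcca
ZNF548: ctatatagtatAATAAAtatttacatagca
ZNF160: ttttaactAATAAAatagaatggtttttct
ZNF738: attctaatcttttATTAAAatttgcacatt

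In the last 50 annotated bases, 111 of the 248 members had AATAAA, 37 had only ATTAAA and 100 had neither. AATAAA was in 44.8% of members and in 54.3% of the other genes on chromosome 19. ZNF812, ZNF547 (which had a larger change in LNCaP95 cells than ZNF548), ZNF226, ZNF229, ZNF792 and ZNF180 had neither in this window, which says nothing of signals outside it. With AATAAA, 16 of 88 tested members rose and 23 fell in LNCaP95 cells (median -0.05 on the log2 scale). With ATTAAA, 4 of 25 rose and 13 fell (median -0.22), and with neither 13 of 68 rose and 15 fell (median 0.05). Over all genes tested in LNCaP95 cells, 33.2% rose and 33.7% fell. In LNCaP cells the medians were -0.06, -0.11 and -0.06, and in 22Rv1 cells 0.04, -0.00 and 0.04.

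In LNCaP cells, ZNF812 had the largest rise of the family. The CTRL sh libraries held it at 2.22, 2.40 and 2.61 CPM, those of CPSF1 sh1 at 15.2, 15.7 and 17.2 CPM, and under CPSF1 sh2 it lay between, at 10.9, 10.5 and 10.8 CPM. The groups did not overlap, and the change was 2.46 ± 0.22 (log2, SE) with an adjusted p-value of 2.1e-07. In LNCaP95 cells it went from 1.76, 1.91 and 2.47 CPM to between 3.74 and 6.97 CPM, without overlap, but control libraries under 2 CPM kept it out of the test there. In 22Rv1 cells its levels were 4.82, 5.83 and 3.03 CPM with CTRL sh and 4.79 to 5.96 CPM with CPSF1 sh, which overlapped, and the change of 0.22 ± 0.17 did not pass the test (adjusted p = 0.35). Among called members whose control and knockdown libraries did not overlap, a condition set for naming in each line, the other rises in LNCaP cells were small, at 0.45 for ZNF324, 0.42 for ZNF45, 0.36 for ZNF324B and 0.33 for ZNF30. ZNF730 rose by 0.52 (adjusted p = 0.020), but its libraries overlapped, at 2.60 to 4.55 CPM with CTRL sh and 4.49 to 6.60 CPM with CPSF1 sh. The call for ZNF30 was lost with DESeq2 (0.34) and without CTRL sh replicate 1 (0.30) or 3 (0.28). Of the 75-base exon windows of ZNF324 and ZNF324B, 12.2% and 15.2% occur again elsewhere on the chromosome, so reads could be split between copies.

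The falls in LNCaP cells were more even. ZNF506 fell from 4.43, 5.67 and 6.12 CPM to 3.53, 3.03 and 3.77 CPM under CPSF1 sh1 and to 2.07, 2.77 and 2.28 CPM under CPSF1 sh2, a change of -0.91 ± 0.18 (log2, SE; adjusted p = 4.3e-04). ZNF792 fell by 0.81 ± 0.13 (adjusted p = 6.5e-05), from 7.38 to 7.90 CPM to between 3.47 and 5.15 CPM. ZNF677 fell by 0.68 ± 0.10 (adjusted p = 4.8e-05) and ZNF382 by 0.67 ± 0.12 (adjusted p = 2.4e-04). For these 4 members no knockdown library reached the level of a control. ZNF382 encodes a KRAB repressor described as a tumour suppressor, and it fell in LNCaP95 cells too, by 0.39 ± 0.11 (adjusted p = 5.9e-03). ZNF358, the member with the highest level per kb in LNCaP cells, fell from 53.3, 52.9 and 50.2 CPM to between 35.2 and 41.3 CPM, a change of -0.43 ± 0.06 (adjusted p = 1.1e-05).

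ZNF160 and ZNF226 fell in both LNCaP and LNCaP95 cells. In LNCaP95 cells the controls had ZNF160 at 93.7, 89.9 and 86.97 CPM, CPSF1 sh1 brought it to 61.9, 65.2 and 51.7 CPM, and the libraries of CPSF1 sh2 were lowest, at 46.5, 40.1 and 36.8 CPM. The 3 groups did not overlap, the change was -0.84 ± 0.14 (log2, SE; adjusted p = 2.4e-04), and CPSF1 sh2 was lower than CPSF1 sh1 by -0.54 (adjusted p = 5.3e-05). In LNCaP cells it went from 51.5, 50.4 and 54.7 CPM to between 31.2 and 39.6 CPM (-0.53 ± 0.07, adjusted p = 7.0e-06). In 22Rv1 cells it was at 40.8, 41.9 and 43.3 CPM with CTRL sh and between 35.2 and 43.2 CPM with CPSF1 sh (-0.11 ± 0.07, adjusted p = 0.25). The change in 22Rv1 cells differed from that in LNCaP95 cells by 0.73 ± 0.16 (adjusted p = 3.8e-04) and from that in LNCaP cells by 0.44 ± 0.17 (adjusted p = 0.036). The latter did not pass the threshold in 8 of the 27 fits that left out 1 library, with values from 0.40 to 0.47. ZNF226 fell by 0.81 ± 0.13 in LNCaP and 0.69 ± 0.13 in LNCaP95 cells (adjusted p = 8.7e-05 and 3.5e-04). In 22Rv1 cells its levels were 8.38, 8.93 and 7.91 CPM with CTRL sh and 7.95 to 9.27 CPM with CPSF1 sh, with a change of 0.01 ± 0.10. The difference from LNCaP was 0.84 ± 0.18 (adjusted p = 4.1e-04).

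In LNCaP95 cells the largest rise was that of ZNF493, a KRAB gene of the ZNF101 to ZNF254 group. From 2.42, 4.27 and 3.95 CPM in the controls it went to 8.03, 8.93 and 9.02 CPM under CPSF1 sh1 and to 8.19, 7.77 and 8.95 CPM under CPSF1 sh2. The groups did not overlap, and the change was 1.28 ± 0.16 (log2, SE; adjusted p = 1.7e-05). In LNCaP cells its level did not change past the threshold, at 7.52, 7.38 and 7.92 CPM with CTRL sh and 5.96 to 9.45 CPM with CPSF1 sh, and the difference between these lines was 1.19 ± 0.22 (adjusted p = 3.5e-05). ZNF547 rose from 2.64, 2.36 and 2.47 CPM to between 4.002 and 6.78 CPM (1.20 ± 0.18, adjusted p = 6.7e-05). Its libraries also did not overlap in LNCaP cells, at 1.72 to 2.02 CPM and 3.65 to 4.90 CPM, nor in 22Rv1 cells, at 0.542 to 1.52 CPM and 1.61 to 4.37 CPM, though it was too low to be tested in either. ZNF180 rose by 0.81 ± 0.12 (adjusted p = 7.7e-05), from between 4.81 and 5.14 CPM to between 7.34 and 10.2 CPM. ZNF347 and ZNF585B rose by 0.78 and 0.70, and 12.7% of the exon windows of ZNF585B occur elsewhere on the chromosome.

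The largest falls in LNCaP95 cells were those of ZNF548, ZNF160, ZNF880, ZNF587 and ZNF226. ZNF548 fell from 14.8, 14.2 and 12.6 CPM in the controls to 8.41, 7.90 and 8.16 CPM under CPSF1 sh1 and to 6.59, 7.18 and 6.64 CPM under CPSF1 sh2, a change of -0.89 ± 0.10 (log2, SE; adjusted p = 1.1e-05). ZNF880 fell by 0.83 ± 0.12 (adjusted p = 4.8e-05) and ZNF587 by 0.74 ± 0.09 (adjusted p = 1.5e-05), though 17.3% of the exon windows of ZNF587 occur elsewhere. ZNF547, which rose, and ZNF548, which fell, are neighbours on the same strand, with ZNF548 starting 10285 bases beyond the end of ZNF547. ZNF304, a KRAB repressor, fell by 0.45 in LNCaP95 cells. Of the retrotransposon repressors, ZNF91 rose by 0.33 ± 0.09 (adjusted p = 7.0e-03), from 12.2, 15.0 and 12.9 CPM to between 15.7 and 18.6 CPM. ZNF93 fell by 0.47 ± 0.10 (adjusted p = 8.1e-04), from 9.31, 8.99 and 10.6 CPM to between 6.54 and 7.30 CPM. Neither gene changed past the threshold in 22Rv1 cells, at 0.09 ± 0.10 and -0.17 ± 0.11.

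**Figure D3:**
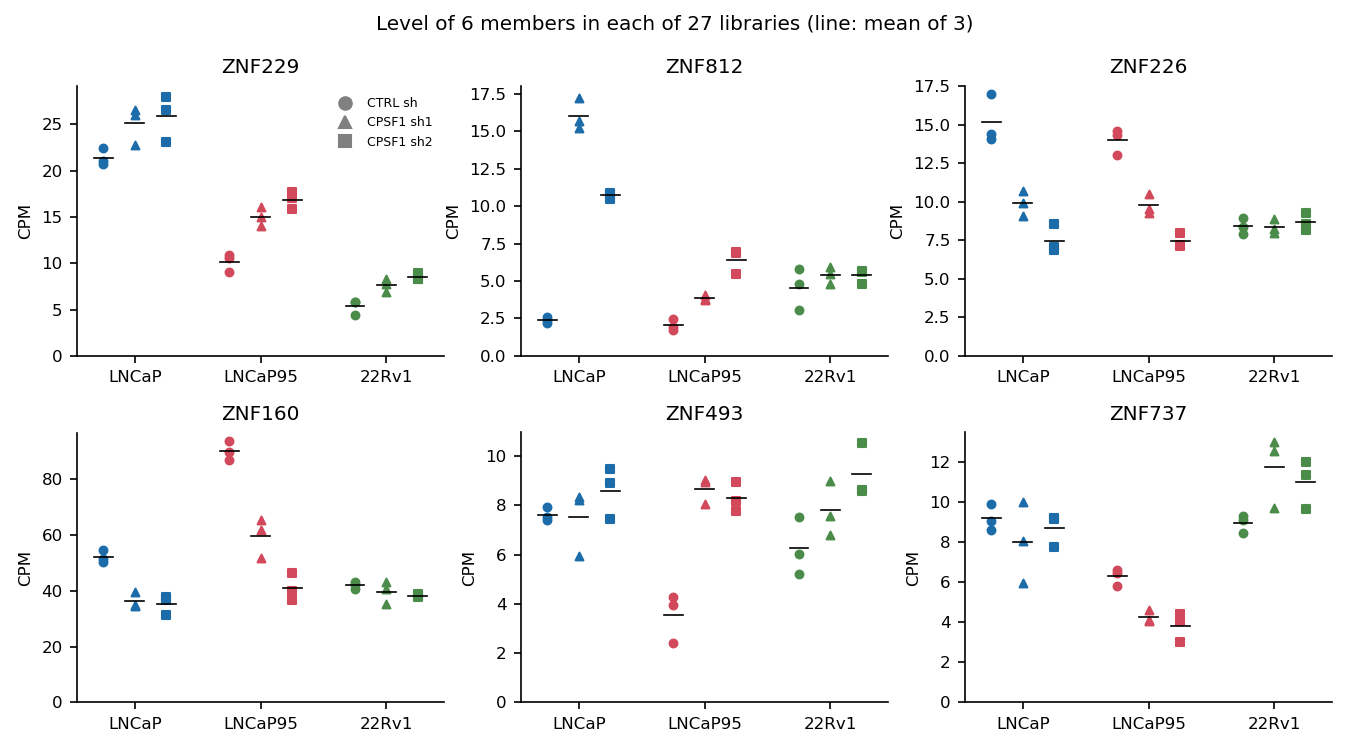
Level in CPM of 6 members in each of the 27 libraries, by line and hairpin, with a line for the mean of 3 libraries. ZNF812 is highest with CPSF1 sh1 in LNCaP cells, at 15.2 to 17.2 CPM, and ZNF160 in LNCaP95 cells goes from 86.97 to 93.7 CPM with CTRL sh down to 36.8 to 46.5 CPM with CPSF1 sh2.

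In 22Rv1 cells the changes were smaller. ZNF229 rose from 4.40, 5.83 and 5.85 CPM in the controls to 6.91, 8.31 and 7.79 CPM under CPSF1 sh1 and to 8.99, 8.26 and 8.36 CPM under CPSF1 sh2 (0.60 ± 0.13 on the log2 scale, SE; adjusted p = 3.6e-03). It was the only member that rose past the threshold in all 3 lines, by 0.27 ± 0.08 in LNCaP cells (adjusted p = 7.0e-03) and by 0.65 ± 0.10 in LNCaP95 cells (adjusted p = 1.2e-04), and no member fell in all 3. Its rise in LNCaP95 cells exceeded that in LNCaP cells by 0.40 ± 0.13 (adjusted p = 0.011), and knockdown and control libraries did not overlap in any line. ZNF738 rose from 8.72, 8.84 and 8.78 CPM to between 11.9 and 14.5 CPM (0.57 ± 0.10, adjusted p = 8.0e-04). ZNF473, the histone 3′ end processing factor, fell from 69.1, 63.3 and 68.9 CPM to between 50.5 and 57.8 CPM (-0.29 ± 0.06, adjusted p = 2.2e-03). ZNF730, ZNF737 and ZNF566 rose by 0.36, 0.34 and 0.34. ZNF274 rose by 0.22 ± 0.07 in 22Rv1 cells (adjusted p = 0.024) and by 0.16 ± 0.05 in LNCaP cells (adjusted p = 0.014), with knockdown libraries above the controls in both, and did not change past the threshold in LNCaP95 cells (-0.08 ± 0.05). With both hairpins together, ZNF331 and ZNF420 passed the test in no line, though ZNF331 rose by 0.19 in LNCaP95 cells with CPSF1 sh2 alone (adjusted p = 0.022). Some of these calls did not hold without 1 control library. Without CTRL sh replicate 1 or 3 of 22Rv1 cells, the values there were 0.23 and 0.17 for ZNF274 and 0.28 and 0.33 for ZNF566, none past the threshold, and without CTRL sh replicate 1 of LNCaP cells ZNF274 was at 0.11 there. ZNF730 and ZNF737 lost the call with DESeq2 (0.37 and 0.34) and each in 7 of the 9 fits that left out a library, and the difference of ZNF229 between LNCaP95 and LNCaP cells lost it without CTRL sh replicate 1 of LNCaP95 cells (0.30).

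Across lines, 112 members were called in at least 1 line, and 159 were tested in all 3. Of the rest, 42 were too low to be tested in any. Of 171 members tested in both LNCaP and LNCaP95 cells, 6 rose in both, 20 fell in both and 3 went opposite ways, where 16.9%, 17% and 9.67% of all genes did. Of 162 tested in both LNCaP95 and 22Rv1 cells, 5 rose in both, none fell in both and 4 went opposite ways (6.31%, 7.31% and 5.13% of all genes). Of 173 tested in both LNCaP and 22Rv1 cells, 3 rose in both, none fell in both and 3 went opposite ways (6.2%, 7.19% and 4.4% of all genes). In all, 8 members were called in opposite directions in a pair of lines. They were ZNF358, ZNF442, ZNF333, ZNF737, ZNF302, ZNF473, ZNF667 and ZNF584. Tested as an interaction over the 27 libraries, the knockdown effect of 159 members was higher in LNCaP95 than in LNCaP cells for 29 and lower for 16 (26.7% and 24.1% of all genes). In 22Rv1 against LNCaP cells it was higher for 25 and lower for 5 (20.4% and 20% of all genes). In 22Rv1 against LNCaP95 cells it was higher for 38 and lower for 16 (26.6% and 27.1% of all genes). The count for 22Rv1 against LNCaP fell from 30 to 19 without CTRL sh replicate 3 of LNCaP cells, and without CPSF1 sh1 replicate 3 of 22Rv1 cells it was 34, with 59 in place of 54 for 22Rv1 against LNCaP95.

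**Figure D4:**
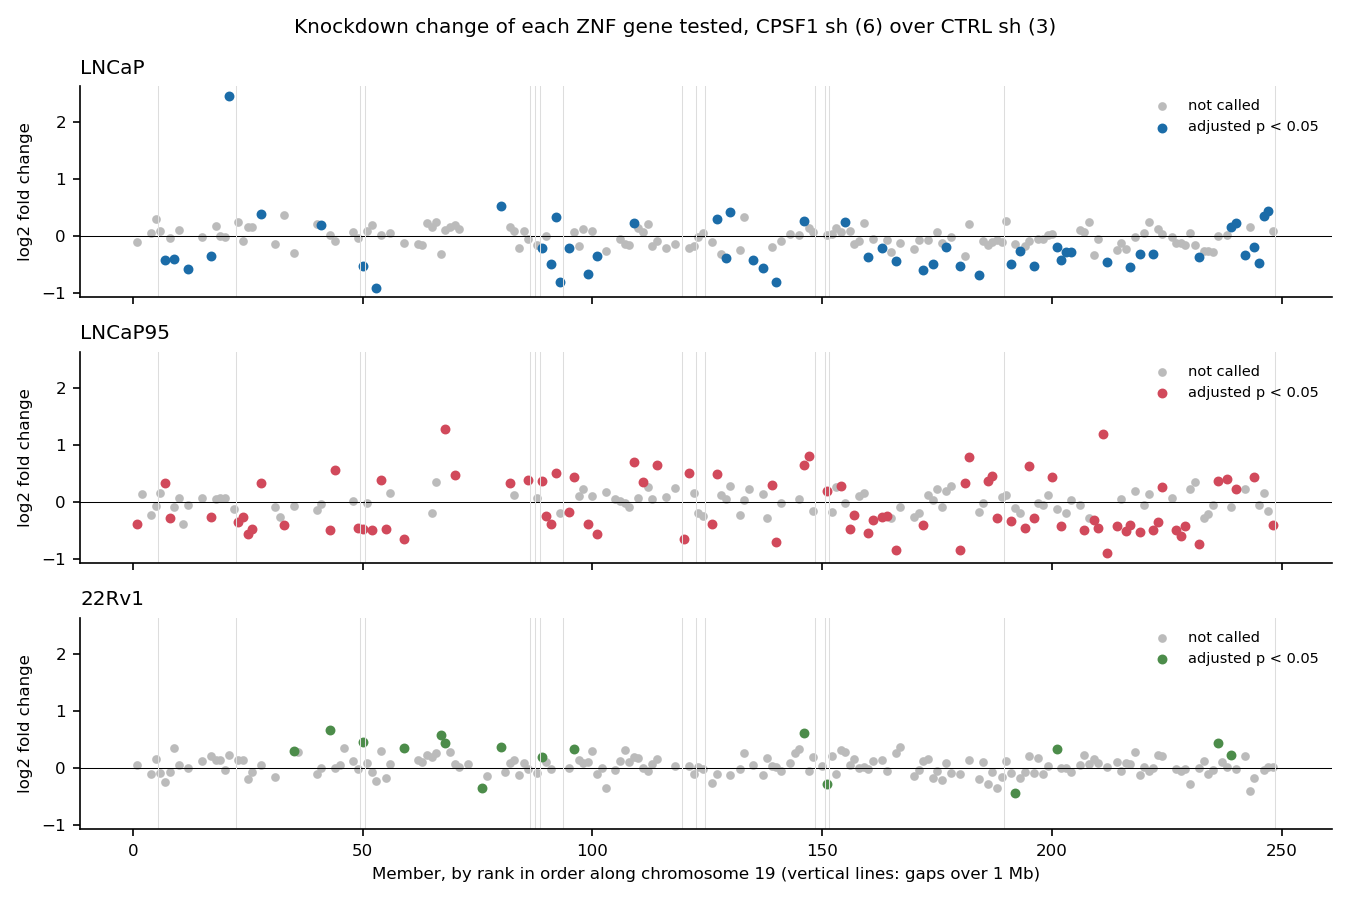
Log2 fold change of CPSF1 sh over CTRL sh for each member tested, by its rank along chromosome 19, in 3 panels for the cell lines, with coloured points for an adjusted p-value below 0.05 and vertical lines at gaps of over 1 Mb. ZNF812 stands alone at 2.46 in LNCaP cells, and called members occur in most of the gene groups.

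By position, the ZNF101 to ZNF254 group had few calls in LNCaP cells, with 1 rise and 1 fall among 22 tested (median 0.09). In the ZNF628 to ZNF446 group 4 of 53 rose and 15 fell (median -0.12), and in the ZNF175 to ZNF331 group 1 of 33 rose and 8 fell (median -0.10). In LNCaP95 cells these groups had 5 rises and 3 falls of 13 tested (median 0.16), 8 and 19 of 53 (median -0.11), and 5 and 10 of 33 (median -0.09). In the group from ZNF653 to ZNF791, 7 of 15 fell and 2 rose in LNCaP95 cells, and 2 of 14 rose in LNCaP cells. Over all genes tested, 31.1% rose and 31% fell in LNCaP cells, and 33.2% rose and 33.7% fell in LNCaP95 cells. The groups are described by their counts, and no test was made between them.

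Members were also divided by features that the rule did not use. A KRAB A box was found in the protein of 179 of the 242 members whose coding sequence could be matched. Of tested members with the box, 10 of 137 rose and 27 fell in LNCaP, 25 of 135 rose and 38 fell in LNCaP95 and 12 of 134 rose and 1 fell in 22Rv1 cells. Without it, 3 of 47 rose and 12 fell, 8 of 46 rose and 13 fell, and 1 of 50 rose and 2 fell. In 22Rv1 cells without CPSF1 sh1 replicate 3, 18 of 136 with the box rose and 1 fell, and 1 of 50 without it rose and 5 fell. Members whose nearest upstream gene on the same strand ended within 10 kb had 3 rises and 11 falls of 35 in LNCaP and 8 and 13 of 40 in LNCaP95 cells. Members without such a neighbour had 11 and 25 of 139, and 23 and 35 of 130. The median changes were -0.13 and -0.04 in LNCaP and -0.05 and -0.04 in LNCaP95 cells. Beside both divisions stand the shares of all genes, which in LNCaP cells were 31.1% risen and 31% fallen, for LNCaP95 cells 33.2% and 33.7%, and for 22Rv1 cells 12.7% and 14.3%.

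The partners of KRAB proteins were examined as a list of 24 genes for corepressors, H3K9 methylation and DNA methylation. In LNCaP cells 4 of 22 tested rose and 11 fell (median -0.11 on the log2 scale), where 31.1% of all genes rose and 31% fell. In LNCaP95 cells 13 of 22 rose and 5 fell (median 0.19), where 33.2% and 33.7% did. In 22Rv1 cells 3 of 23 rose and 2 fell (median 0.02), beside the 12.7% and 14.3% of all genes, and 4 rose and 2 fell without CPSF1 sh1 replicate 3. TRIM28, the scaffold that KRAB domains bind, rose by 0.28 ± 0.04 (SE) in LNCaP and 0.32 ± 0.06 in LNCaP95 cells and did not pass the test in 22Rv1 cells (0.09 ± 0.04, adjusted p = 0.14). SETDB1, the histone methyltransferase that TRIM28 recruits, fell by 0.29 ± 0.05 in LNCaP and rose by 0.15 ± 0.05 in LNCaP95 cells. It rose by 0.19 ± 0.07 in 22Rv1 cells, just past the threshold (adjusted p = 0.047). CBX5, an HP1 protein, fell by 0.15 ± 0.06 in LNCaP and rose by 0.66 ± 0.06 in LNCaP95 cells. DNMT3A, a de novo DNA methyltransferase, fell by 0.71 ± 0.06 in LNCaP and by 0.32 ± 0.13 in LNCaP95 cells, the latter just past the threshold (adjusted p = 0.049). DNMT3B, another DNA methyltransferase, fell by 0.38 ± 0.08 in LNCaP and by 0.44 ± 0.09 in 22Rv1 cells. In LNCaP95 cells DNMT3B was at 0.02 ± 0.10. DNMT1, the maintenance enzyme, rose by 0.25 ± 0.04 in LNCaP and 0.66 ± 0.07 in LNCaP95 cells and fell by 0.21 ± 0.04 in 22Rv1 cells. These shifts stand beside those of the members in each line, and their part in them was not tested.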

How the data were processed

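The authors sequenced poly(A)-selected, stranded paired-end libraries, aligned the reads to GRCh37 with HISAT2 2.1.0 and counted reverse-stranded fragments on exons of Ensembl genes with featureCounts of Subread, given as 2.0.3 in the submitters' processing notes. The deposited table holds raw counts per gene symbol, without normalization. The expression fits of each line took genes above 2 CPM in all 9 libraries, TMM scaling and edgeR 4.0.16 in R 4.3.3 (quasi-likelihood F-test, legacy form, Benjamini-Hochberg adjustment over all genes tested, threshold 0.05), with 3 CTRL sh against 6 CPSF1 sh libraries, or with the hairpins as separate groups. Interactions were fitted over the 27 libraries, and lines were compared in the 9 CTRL sh libraries among genes with a mean above 2 CPM. Levels are CPM of the TMM-scaled library size.

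Replicate libraries were distinct, since libraries of a group had a chi-square per degree of freedom of at least 1.38 over all genes and 0.903 to 2.28 over the members, with 1 for counting error alone. Spread beyond counting error was 4.95%, 7.09% and 6.08% (biological coefficient of variation in LNCaP, LNCaP95 and 22Rv1 cells). On simulated data the test recovered 93.9%, 81% and 90.7% of genes changed by 0.5 on the log2 scale in the knockdown fits of LNCaP, LNCaP95 and 22Rv1 cells and 69.9% in the interaction of LNCaP95 with LNCaP. The changed genes were drawn from all genes tested, whose median CTRL sh level in LNCaP cells was 49.4 CPM against 9.46 CPM for tested members. Far fewer genes were changed than were called in the data. These rates therefore do not describe the members.

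The members and lists were chosen with earlier results of these data known. Named members were the 5 largest rises and falls per line among those called whose knockdown and control libraries did not overlap, those called in all 3 lines or in opposite directions, the 5 largest differences each way between lines, the 3 highest per kb, and 7 with a known role (ZNF274, ZNF91, ZNF93, ZNF331, ZNF420, ZNF304 and ZNF382). Promoters came from RefSeq (GRCh38.p14) and matched 213 of 248 members. KRAB letters were read from translated coding segments of an annotation of the build of the counts, and 242 members matched. Exon uniqueness was judged by the share of 75-base exon windows found again anywhere on chromosome 19, on either strand. Alternatives were RLE factors, library size alone, DESeq2 1.42.0, the newer edgeR form, other filters, a replicate block, a 1.5-fold threshold and each library left out. Some prostate markers are not reported here.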

Additional observations from a re-analysis of the deposited data

Results flagged for a closer look

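The members called in opposite directions in a pair of lines were looked at again, because the difference between their knockdown effects passed the interaction test of edgeR (Benjamini-Hochberg adjustment over all genes) in each case. These members were picked by opposite calls in the same libraries, so a passing interaction follows largely from the choice and is no separate support. Between LNCaP95 and LNCaP cells, the effects differed by 0.77 ± 0.13 (log2, SE; adjusted p = 1.1e-05) for ZNF358, by 0.61 ± 0.10 (adjusted p = 9.3e-06) for ZNF302 and by 0.65 ± 0.12 (adjusted p = 3.2e-05) for ZNF584. All 3 fell in LNCaP cells, by 0.43, 0.21 and 0.19, and rose in LNCaP95 cells by 0.33, 0.38 and 0.45. ZNF358 went from 22.2, 18.8 and 23.6 CPM with CTRL sh to between 23.8 and 30.5 CPM in LNCaP95 cells, without overlap, though this rise, at 0.24 without CTRL sh replicate 2, was then not past the threshold.

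Between 22Rv1 and LNCaP cells, the difference was 0.99 ± 0.23 (adjusted p = 1.2e-03) for ZNF333, 0.41 ± 0.10 (adjusted p = 1.9e-03) for ZNF302 and 0.53 ± 0.12 (adjusted p = 6.9e-04) for ZNF667. Between 22Rv1 and LNCaP95 cells it was 1.16 ± 0.25 (adjusted p = 3.0e-04) for ZNF442, 0.91 ± 0.23 (adjusted p = 1.3e-03) for ZNF333, 0.98 ± 0.19 (adjusted p = 6.8e-05) for ZNF737 and -0.49 ± 0.09 (adjusted p = 5.1e-05) for ZNF473. ZNF333 stands alone on chromosome 19, over 1 Mb from any other member. It fell by 0.53 in LNCaP and by 0.47 in LNCaP95 cells and rose by 0.45 in 22Rv1 cells, where its control libraries at 3.64, 2.73 and 4.12 CPM overlapped the knockdown libraries at 3.69 to 5.09 CPM and the adjusted p-value was 0.049. ZNF442 likewise had low levels in 22Rv1 cells, at 2.28, 3.10 and 2.71 CPM with CTRL sh and 2.93 to 5.25 CPM with CPSF1 sh. The differences between lines passed the threshold under every alternative run for these members, in each pair of lines named here, but several of the single-line calls behind them did not. In 22Rv1 cells, ZNF302, ZNF333, ZNF667 and ZNF737 lost theirs with DESeq2 (0.19, 0.45, 0.33 and 0.34), and ZNF442 without CTRL sh replicate 1 (0.55) or 3 (0.68). In LNCaP95 cells, ZNF473 lost its rise without a filter (0.15), ZNF333 its fall without CTRL sh replicate 1 (-0.39) and ZNF442 its fall without CTRL sh replicate 2 (-0.41). In LNCaP cells, ZNF667 lost its fall with DESeq2 (-0.19), ZNF584 without CTRL sh replicate 3 (-0.14) and ZNF302 without CTRL sh replicate 2 (-0.20) or 3 (-0.14).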

How the results depend on the processing

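Among the members, 213 of 276 called values of named genes kept their direction and their side of the threshold under every alternative run, and none reversed. A change of at least 1.5-fold left 7 members in LNCaP (1 higher, 6 lower), 16 in LNCaP95 (8 higher, 8 lower) and 2 in 22Rv1 cells (2 higher, 0 lower). DESeq2 called 8 members in 22Rv1 cells (6 higher), and its hairpin fits gave 33 for CPSF1 sh1 in LNCaP, 2 for CPSF1 sh1 and 12 for CPSF1 sh2 in 22Rv1, and 1, 15 and 1 for the difference between hairpins in LNCaP, LNCaP95 and 22Rv1 cells. The cause was not tested.

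Whether the replicate numbers of the labels pair the samples was not settled, and the main fits took no pairing. The correlation of same-numbered deviations ran from -0.06 to 0.24 in LNCaP, -0.23 to 0.27 in LNCaP95 and -0.11 to 0.20 in 22Rv1 cells. In these lines 6, 5 and 4 of 9 libraries correlated best with their own number. The replicate block gave 9 members (6 higher) in 22Rv1 cells and 7 for the difference between hairpins in LNCaP cells.

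Leaving out each library in turn gave 8 to 17 higher members in LNCaP cells (8 without CTRL sh replicate 1). In 22Rv1 cells it gave 5 to 25 members, 4 to 19 higher and 1 to 6 lower, with 5 members without CTRL sh replicate 3, 6 without CTRL sh replicate 1, 9 without CTRL sh replicate 2 or CPSF1 sh2 replicate 3, 10 without CPSF1 sh2 replicate 1, and 8 higher without CPSF1 sh2 replicate 2. The hairpins gave 2 to 11 members for CPSF1 sh1 and 11 to 32 for CPSF1 sh2 in 22Rv1 cells. Their difference gave 1 to 4 in LNCaP, 14 to 26 in LNCaP95 and 0 to 9 in 22Rv1 cells, and the interaction of 22Rv1 with LNCaP 19 to 34. The 42 members tested in no line failed the minimum of 2 CPM, and counting error weighs most on members near it.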
